A study of Drosophila melanogaster with 19 samples.

Results

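Guts of adult female Drosophila melanogaster that overexpressed Pdm2-RB were compared with guts of driver controls on 6 of the 19 one-colour Agilent arrays of the series. The 3 Pdm2RB gut arrays (replicates 1, 2 and 4) hold RNA of flies labelled w; c564-Gal4>UAS-Pdm2RB, and the 3 w1118 gut arrays (replicates 1, 3 and 4) hold RNA of control flies with the same driver and no UAS transgene, spelled c564-Gal4/+ in the design text and c546-Gal4/+ in the labels of the control samples. Every fly was 10 days old and came from a mixed-sex culture, and the replicates of a tissue came from independent pools of dissected flies. Whether gut and rest samples of the same number came from the same pool is not given in the sources used here. The remaining arrays hold guts of flies with a UAS-nubRB transgene under the same driver (3 arrays) and the rest of the body, without gut and head, of all 3 genotypes. Those arrays are used below only where they were set beside the Pdm2RB guts.

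Pdm2 and its neighbour nubbin (nub) encode transcription factors of the POU family, which bind octamer DNA motifs through a POU-specific domain and a homeodomain. Both genes use separate promoters that give protein isoforms with different N-termini and the same DNA-binding part, and nub is known in the gut for its isoforms' opposite effects on genes of antimicrobial peptides. In the GAL4/UAS system a driver line supplies the yeast activator GAL4 in chosen tissues, and any transgene behind a UAS is then transcribed there. The c564 line drives in fat body and midgut, among other tissues, so a gut sample mixes driver-positive and driver-negative cells. The control flies lack a UAS transgene altogether, so the effect of the Pdm2-RB transgene and other differences between the fly lines cannot be told apart on these arrays. How the UAS-Pdm2-RB line was built is not given in the sources used here.

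The median processed signal of the 6 gut arrays lay between 54.9 and 340, with the lowest on w1118 gut 1, and 67.6% to 83.8% of 32162 probes were well above background. The scanner's software marked 49 to 65 of 43602 spots per gut array as uneven or as outliers, and no spot was saturated. Signals were quantile-normalized over all 19 arrays, which gives every array the same distribution of linear signals, and a probe was tested when its mean signal exceeded 130 in at least 1 of the compared groups. Pdm2RB gut 4 was scanned in the same session as w1118 guts 3 and 4, and Pdm2RB guts 1 and 2 in the same session as w1118 gut 1. The correlation across probes between pairs of the 6 arrays ranged from 0.895 to 0.968, and Pdm2RB gut 4 correlated more closely with w1118 gut 3 of its own session (0.966) than with Pdm2RB gut 1 (0.933). Digestive proteases marked the samples as gut on all 6 arrays, with a mean log2 signal over 25 serine protease genes of 16.95 to 17.03 in Pdm2RB guts and 17.04 to 17.09 in w1118 guts.

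Most probes had similar signals in Pdm2RB guts and w1118 guts, and a small group differed by large factors. Of 16566 tested probes, 57 differed at a false discovery rate of 1% (0.344% of those tested; limma with Benjamini-Hochberg adjustment), 26 of them higher (0.157%) and 31 lower (0.187%) in Pdm2RB guts. All 57 differed at least 2-fold, their median absolute log2 fold change was 2.75, and the smallest was 1.16. At least 8-fold differences were measured for 9 of the higher and 10 of the lower probes. Over all tested probes the median log2 fold change was 0.01, with 90% of values between -0.91 and 0.78. The groups did not overlap for any of the 57 probes, and non-overlap was found for 24% of all tested probes.

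The count of called probes depended on single arrays. It was 6 without Pdm2RB gut 1, 6 without Pdm2RB gut 2 and 31 without Pdm2RB gut 4, and it was 17, 8 and 7 without w1118 guts 1, 3 and 4. In all 6 of these reduced comparisons 6 of the 57 probes were called, while 31 were called in none. Within each of the 2 scan sessions, all 57 probes differed at least 2-fold in the direction of the full comparison, and all 57 had that direction on the slide that held Pdm2RB gut 2 and w1118 gut 1. The 57 were chosen on these same arrays and their groups did not overlap, so the direction was fixed in advance. These counts therefore cannot check an effect of session or slide. At a false discovery rate of 5%, 336 probes passed (2.03%), 158 higher (0.954%) and 178 lower (1.07%). At the edge of the 1% list, the last probes inside had adjusted p = 0.00971 and 0.00999 with log2 fold changes of -2.04 and 1.45, and the first outside had 0.0102 with -1.60 and 1.30.

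**Figure D1:**
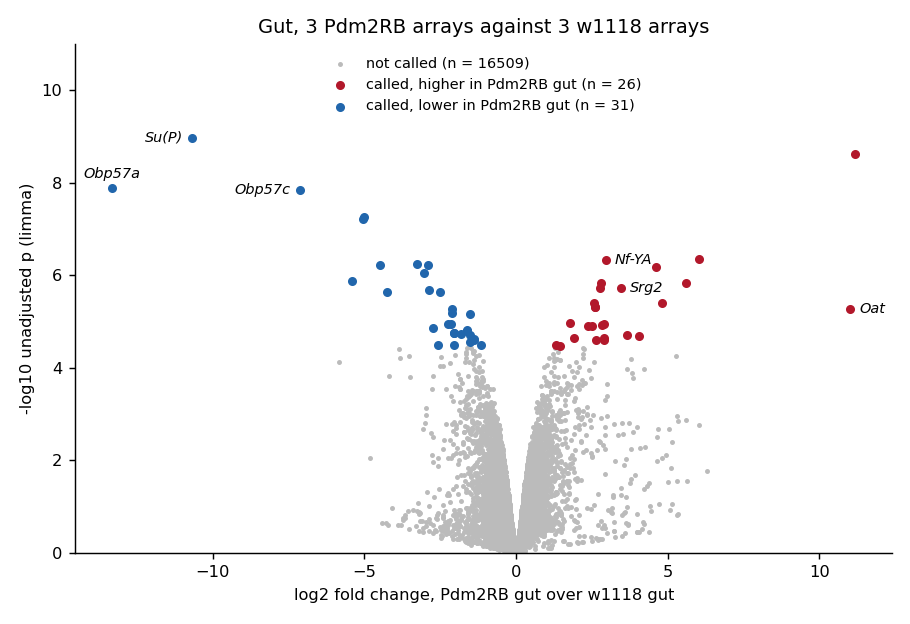
Log2 fold change of Pdm2RB gut over w1118 gut (x axis) against minus log10 of the unadjusted limma p (y axis) for the 16566 tested probes, with the called probes in colour. The 26 higher and 31 lower probes at a false discovery rate of 1% lie outside a dense centre whose median is 0.01, and the largest differences in each direction are beyond 10 on the log2 scale.

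Gene symbols were available for 906 of the tested probes (703 genes, 5.47% of those tested), most of them through lists of genes that differed in nubRB flies. Among the 57 called probes, 19 carried a symbol and stood for 17 genes. The other 38 are known here only by their identifiers. With the symbols available no probe could be assigned to pdm2 itself, so the transgene's level was not checked. A pdm2 probe may be among those without a symbol.

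The largest differences in gut were of an all-or-none kind. Signals below are given for Pdm2RB guts 1, 2 and 4 and for w1118 guts 1, 3 and 4, in these orders. Oat encodes ornithine aminotransferase, a mitochondrial enzyme that links ornithine to glutamate and proline. Its probe A_09_P164595 gave 7290.2, 11819 and 1723 in Pdm2RB guts, against 2.28, 3.02 and 2.44 in w1118 guts. None of the w1118 arrays was well above background and all Pdm2RB arrays were, with Pdm2RB gut 4 the lowest of them. Oat was at least 576-fold higher in Pdm2RB guts, taking the lowest signal well above background on each w1118 array as the limit (log2 fold change 11.01, SE 0.70, limma adjusted p = 0.00332, n = 3 each). Bounds of this kind hold for the main processing only. Among the alternatives described below, the log2 fold change on this probe was as low as 5.49. A second Oat probe, A_09_P033076, gave 2537, 4472 and 443 in Pdm2RB guts, against 627, 499 and 262 in w1118 guts. The groups overlapped on it, and its log2 fold change of 1.98 did not pass the test (adjusted p = 0.332), so the size of the Oat difference depended on the probe.

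Probe A_09_P143788, which has no gene symbol, gave 17371, 16134 and 14162 in Pdm2RB guts, against 7.55, 7.72 and 5.30 in w1118 guts. Its Pdm2RB signals lay within a narrow range, and only 1 of the 3 w1118 arrays was well above background (log2 fold change 11.19, SE 0.19, adjusted p = 1.95e-05). Probe A_09_P152205, also without a symbol, gave 118, 147 and 151 in Pdm2RB guts, against 3, 1.87 and 1.69 in w1118 guts. It was at least 15-fold higher in Pdm2RB guts in the main processing, with no w1118 array well above background (log2 fold change 6.03, SE 0.25, adjusted p = 0.000906). Its log2 fold change was as low as 1.06 among the alternatives.

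In the other direction, Obp57a and Su(P) lay at background in Pdm2RB guts. Obp57c fell to a low signal there that was well above background on all 3 arrays. Obp57a and Obp57c encode odorant-binding proteins, a family of small secreted carriers of hydrophobic ligands, and lie near each other with Obp57b between them. Obp57a gave 6.65, 3.39 and 3.72 in Pdm2RB guts, against 35596, 47467 and 52103 in w1118 guts. It was bright on each w1118 array and not well above background on any Pdm2RB array. That amounts to at least a 6240-fold lower signal in Pdm2RB guts (log2 fold change -13.31, SE 0.30, adjusted p = 5.87e-05).

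Obp57c gave 25.1, 28.3 and 24.2 in Pdm2RB guts, against 2990.2, 3820.4 and 4164 in w1118 guts. Its groups were far apart, with little spread within either (log2 fold change -7.13, SE 0.16, adjusted p = 5.87e-05). Su(P) gave 3.31, 2.92 and 3.96 in Pdm2RB guts, against 5604, 5009.7 and 6012 in w1118 guts. Its signal was at least 775-fold lower in Pdm2RB guts, where no array was well above background (log2 fold change -10.68, SE 0.16, adjusted p = 1.75e-05). These 3 genes and A_09_P143788 were called whichever array was left out.

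Of the probes without a symbol, A_09_P015716 gave 17.3, 13.1 and 23.3 in Pdm2RB guts, against 585, 928 and 758 in w1118 guts (log2 fold change -5.42, SE 0.27, adjusted p = 0.00155). A_09_P079141 gave 170, 230 and 206 in Pdm2RB guts, against 6203, 6859.8 and 6643 in w1118 guts (log2 fold change -5.03, SE 0.15, adjusted p = 0.000171). Both probes kept a signal in Pdm2RB guts, at a small part of the control level and without overlap.

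**Figure D2:**
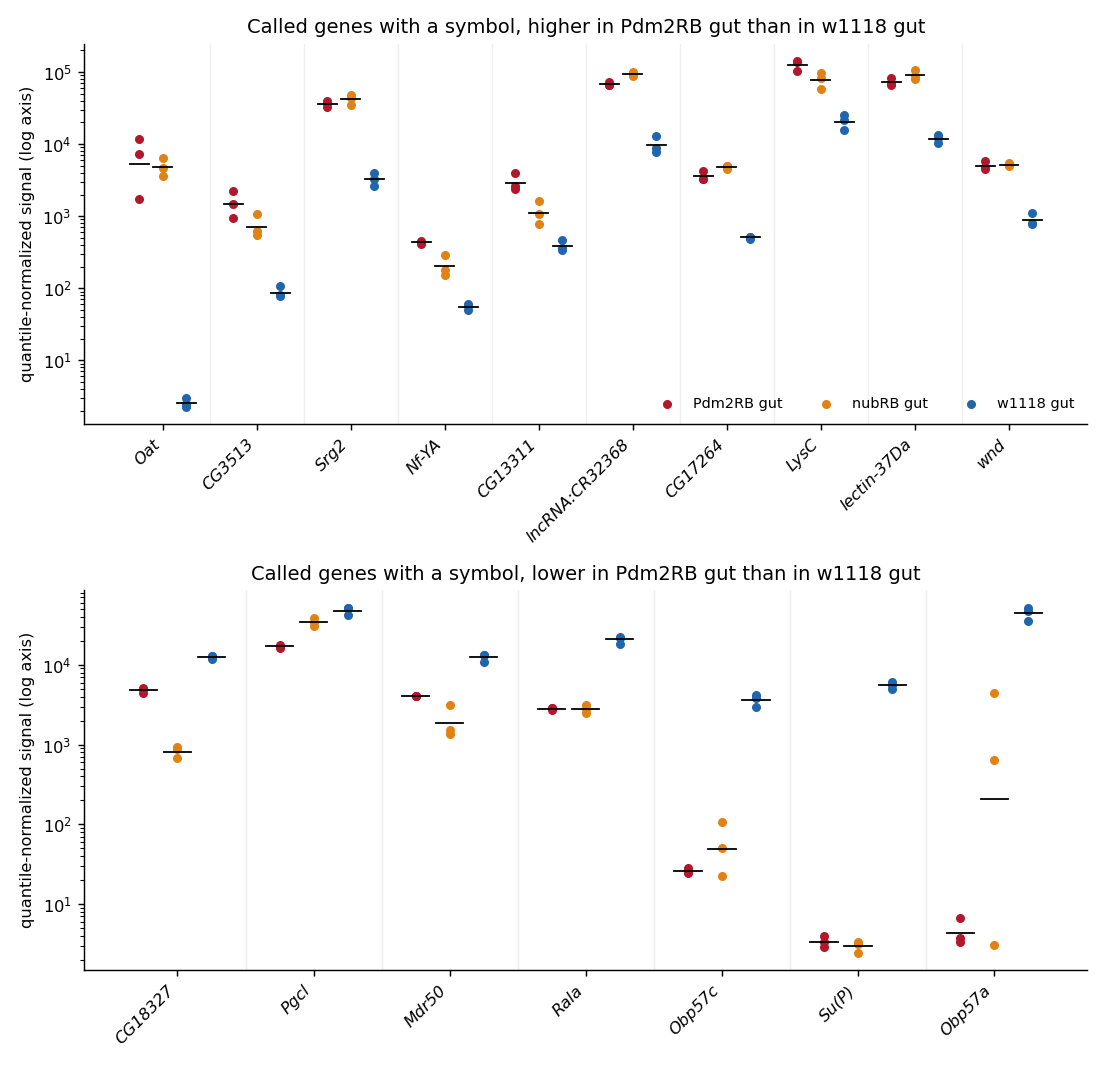
Normalized signal on a log10 axis of the called genes with a symbol, 1 point per array, with Pdm2RB, nubRB and w1118 guts from left to right within each gene and bars at the geometric means. Between Pdm2RB and w1118 guts, Oat, Obp57a and Su(P) lie at single-digit signals on every array of one group and above 1000 on every array of the other, and the remaining genes differ by smaller factors.

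The other called genes with a symbol had clear signals in both groups and differed by smaller factors. CG3513 gave 950, 1468 and 2211 in Pdm2RB guts, against 80.0, 106 and 76.9 in w1118 guts. That is a log2 fold change of 4.07 (SE 0.33, adjusted p = 0.00771), and its second probe had 3.81 (adjusted p = 0.0126). Srg2 gave 39612, 33046 and 36813 in Pdm2RB guts, against 3316, 3999 and 2643 in w1118 guts. Every Pdm2RB array was about an order of magnitude above the control (11.1-fold, log2 3.47, SE 0.18, adjusted p = 0.0017).

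Nf-YA, a subunit of the NF-Y factor that binds CCAAT boxes, gave 417, 458 and 429 in Pdm2RB guts, against 60.5, 55.9 and 49.8 in w1118 guts on probe A_09_P054366. The difference was 7.86-fold (log2 2.97, SE 0.12, adjusted p = 0.000906). Its second probe, A_09_P189150, gave 955, 805 and 980 in Pdm2RB guts, against 1138, 868 and 944 in w1118 guts. On that probe the groups overlapped (log2 fold change -0.10, adjusted p = 0.779), so the 2 probes of Nf-YA disagreed.

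The protein kinase wnd (Wallenda), a mitogen-activated kinase kinase kinase that acts upstream of JNK and p38 and is best known from injured axons, gave 4573, 4836 and 5841 in Pdm2RB guts, against 1099.9, 798 and 784 in w1118 guts. It was 5.73-fold higher (log2 2.52, SE 0.19, adjusted p = 0.00589), and wnd and Oat are close neighbours in the genome with Rnf146 between them. The C-type lectin gene lectin-37Da, of a family of sugar-binding proteins, gave 83569, 65792 and 67524 in Pdm2RB guts, against 12008, 13344 and 10534 in w1118 guts. Its difference was 6.04-fold (log2 2.59, SE 0.16, adjusted p = 0.00282). The non-coding RNA lncRNA:CR32368 gave 72934, 66492 and 66492 in Pdm2RB guts, against 12928, 7856 and 8831 in w1118 guts (log2 2.83, SE 0.21, adjusted p = 0.00579). Like lectin-37Da, it was bright in both groups and higher on each Pdm2RB array.

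CG17264 gave 3331, 3271 and 4266 in Pdm2RB guts, against 522, 487 and 517 in w1118 guts. Its fold change was 7.07 (log2 2.82, SE 0.14, adjusted p = 0.00155). CG13311 gave 2651, 3982 and 2384 in Pdm2RB guts, against 365, 469 and 340 in w1118 guts, and its difference was 7.56-fold (log2 2.92, SE 0.24, adjusted p = 0.0081).

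After Obp57a, Su(P) and Obp57c, the called gene with a symbol that was lower by the most was Rala. It encodes a small GTPase of the Ras superfamily that takes part in membrane traffic. Its probe A_09_P052086 gave 2854, 2722 and 2850.1 in Pdm2RB guts, against 18354, 22557 and 21766 in w1118 guts (log2 fold change -2.89, SE 0.13, adjusted p = 0.000906), and a second called probe had -3.03 (adjusted p = 0.00113). Another Rala probe, A_09_P030671, went the other way with 8113, 8354 and 9254 in Pdm2RB guts, against 3765, 4639 and 3967 in w1118 guts (log2 fold change 1.06, adjusted p = 0.0248). The probes of Rala therefore disagreed in direction.

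Mdr50, an ABC transporter of the multidrug resistance family, gave 4061, 4046 and 4068 in Pdm2RB guts, against 13117, 13152 and 10939.8 in w1118 guts. It was 3.05-fold lower (log2 -1.61, SE 0.12, adjusted p = 0.0065), and its second probe had -1.47 (adjusted p = 0.0102). Pgcl gave 17713, 16473 and 16798 in Pdm2RB guts, against 42194, 50998 and 51154 in w1118 guts. Both of its probes were called, at -1.50 and -1.51 (adjusted p = 0.00875 and 0.00741). CG18327 gave 4443, 5071 and 4983 in Pdm2RB guts, against 12736, 11819 and 12831 in w1118 guts (log2 -1.37, SE 0.12, adjusted p = 0.00834), and its second probe had -1.07 (adjusted p = 0.0131). On every one of these probes the highest Pdm2RB signal was below the lowest w1118 signal.

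The calls of these genes depended on single arrays, while their fold changes moved little. The log2 fold change ranged from 3.32 to 3.62 for Srg2, from 2.90 to 3.04 for Nf-YA, from 3.77 to 4.38 for CG3513 and from -2.98 to -2.83 for Rala with each array left out in turn. In the same fits, Nf-YA and Rala were called in 2 of 6, and Oat, CG17264 and lncRNA:CR32368 in 1. CG3513, Srg2, CG13311, LysC, lectin-37Da, wnd, Pgcl, CG18327 and Mdr50 were called in none. Their direction was kept in each fit, which groups without overlap fix in advance. In the RefSeq table, 8 of the 17 called genes with a symbol lie on chromosome arm 3L, which holds 136 of the 700 tested genes with a symbol and an arm (47.1% of the called genes and 19.4% of those tested). They are Oat, wnd, Srg2, Nf-YA, CG13311, LysC, lncRNA:CR32368 and Su(P), of which Su(P) alone was lower. No called gene with a symbol lies on arm 3R, which holds 170 of the tested genes. The choice of genes with a symbol was not random, and these shares were not tested.

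The nub gene, the close relative of pdm2, is read by 5 probes with the same transcript identifier. The brightest, A_09_P004151, gave 9641, 9982 and 14231 in Pdm2RB guts, against 5612, 10226 and 7382 in w1118 guts. The groups overlapped, and the log2 fold change of 0.56 did not pass the test (SE 0.27, adjusted p = 0.364). A second tested probe had 0.63 (adjusted p = 0.552), also with overlapping groups. The remaining 3 probes were dimmer than the signal threshold and not tested, but were well above background on every gut array. A_09_P161260 gave 93, 117 and 158 in Pdm2RB guts, 331, 147 and 143 in the 3 nubRB guts, and 58.3, 88.7 and 44.7 in w1118 guts. A_09_P048246 gave 62.6, 78.5 and 113 in Pdm2RB guts, 259, 125 and 114 in nubRB guts, and 41.6, 53.1 and 31.8 in w1118 guts. On these 2 probes and on A_09_P210005, with 38, 38.5 and 72.4 in Pdm2RB guts against 22.7, 17.9 and 19.6 in w1118 guts, each Pdm2RB array was above each w1118 array. The same held for 12.3% of all tested probes. Between nubRB and w1118 guts, A_09_P161260 and A_09_P048246 had log2 fold changes of 1.64 and 1.91 (adjusted p = 0.124 and 0.0699), and the brightest probe, with 11087, 7579 and 8065 in nubRB guts, had 0.23 (adjusted p = 0.706). The probes of nub thus differed in how far they separated the groups, and where they lie relative to either transgene was not checked.

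Antimicrobial peptides are short secreted peptides made by fat body and by epithelia such as the gut, where the IMD pathway and its NF-kappaB factor Relish control most of them. Of 18 peptide genes with a symbol, 16 were tested, and none passed at 1% or at 5% (0.344% of all tested probes passed at 1% and 2.03% at 5%). Their signals in Pdm2RB guts were nevertheless mostly above those in w1118 guts, with positive log2 fold changes for 14 of 16 and a median of 3.61, against 0.01 over all tested probes. For 11 of the 16 the lowest Pdm2RB signal was above the highest w1118 signal (12.3% of all tested probes), and 11 had an unadjusted p under 0.05 (17.2% of all tested probes did). The signal threshold tilts these counts. CecA1 and Drsl2 exceeded it in Pdm2RB guts only, so that they were tested because they were higher there. Without the threshold the median over all 18 genes was 3.19, with 0 called. Most symbols came from lists of genes that differed between nubRB flies and these same w1118 controls. Genes with a symbol are thus no random draw, and shares over all probes are not a like reference for this list or the later ones.

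The largest fold changes were those of attacins and of DptA, a diptericin, peptides active on Gram-negative bacteria. AttA gave 23533, 6475 and 1875 in Pdm2RB guts, against 222, 141 and 147 in w1118 guts. The groups were clearly apart, but the Pdm2RB arrays spread over more than 10-fold, and the log2 fold change of 5.31 had an SE of 0.89 (adjusted p = 0.0517). AttB, whose transcript is nearly identical to that of AttA so that their signals may be shared, gave 20824, 5629 and 1568 in Pdm2RB guts, against 167, 105 and 288 in w1118 guts (log2 5.05, adjusted p = 0.0695). AttC gave 63248, 16458 and 1912 in Pdm2RB guts, against 498, 496 and 280 in w1118 guts (log2 4.94, SE 1.24, adjusted p = 0.127). DptA gave 44519, 9487 and 1869.6 in Pdm2RB guts, against 186, 384 and 244 in w1118 guts (log2 5.16, SE 1.12, adjusted p = 0.0937). In each of these genes Pdm2RB gut 1 was the highest and Pdm2RB gut 4 the lowest of the Pdm2RB arrays.

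The same order was found for DptB, which gave 45550.0, 9261 and 3049 in Pdm2RB guts, against 558, 562 and 840 in w1118 guts (log2 4.08, adjusted p = 0.11). Metchnikowin (Mtk), a peptide active on fungi, gave 16629, 2485 and 455 in Pdm2RB guts, against 396, 277 and 132 in w1118 guts (log2 3.45, adjusted p = 0.262). The cecropin gene CecA1 gave 1685, 653 and 121 in Pdm2RB guts, against 60.1, 70.3 and 70.1 in w1118 guts (log2 2.94, adjusted p = 0.198). CecA1 and CecA2 are near-identical, so their signals may be shared. Drsl2, a drosomycin-like gene, ran differently, with 807, 828 and 8850.5 in Pdm2RB guts, against 56.2, 89.8 and 74.6 in w1118 guts (log2 4.65, SE 0.97, adjusted p = 0.0835). Here Pdm2RB gut 4 was the highest.

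Small or negative values were measured for other peptide genes. Drosomycin (Drs), an antifungal peptide, gave 226750, 221902 and 242201 in Pdm2RB guts, against 174207, 228236 and 238698 in w1118 guts, with overlapping groups (log2 0.12, adjusted p = 0.736). The log2 fold change of Defensin (Def) was 0.24 (adjusted p = 0.602), and Drsl1 and Drsl5 had -0.24 and -1.30.

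Across the 16 genes the spread lay within the Pdm2RB guts. The 3 Pdm2RB arrays differed at least 10-fold for 11 genes, and the w1118 arrays did so for 0. Pdm2RB gut 1 was the highest array for 11 genes, and Pdm2RB gut 4 was the lowest of the Pdm2RB arrays for 11. The mean log2 signal over the list was 9.19 to 11.72 on the Pdm2RB arrays and 7.58 to 7.77 on the w1118 arrays. The list's median log2 fold change was 2.35 without Pdm2RB gut 1, 3.46 without Pdm2RB gut 2 and 4.35 without Pdm2RB gut 4. Within the scan session of Pdm2RB gut 4 it was 1.15, and within the session of Pdm2RB guts 1 and 2 it was 4.07. After a normexp background correction the median was 1.48. In a model over all 6 groups and 19 arrays, which shares 1 estimate of the spread, AttA, AttB and Drsl2 passed at 1%.

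**Figure D3:**
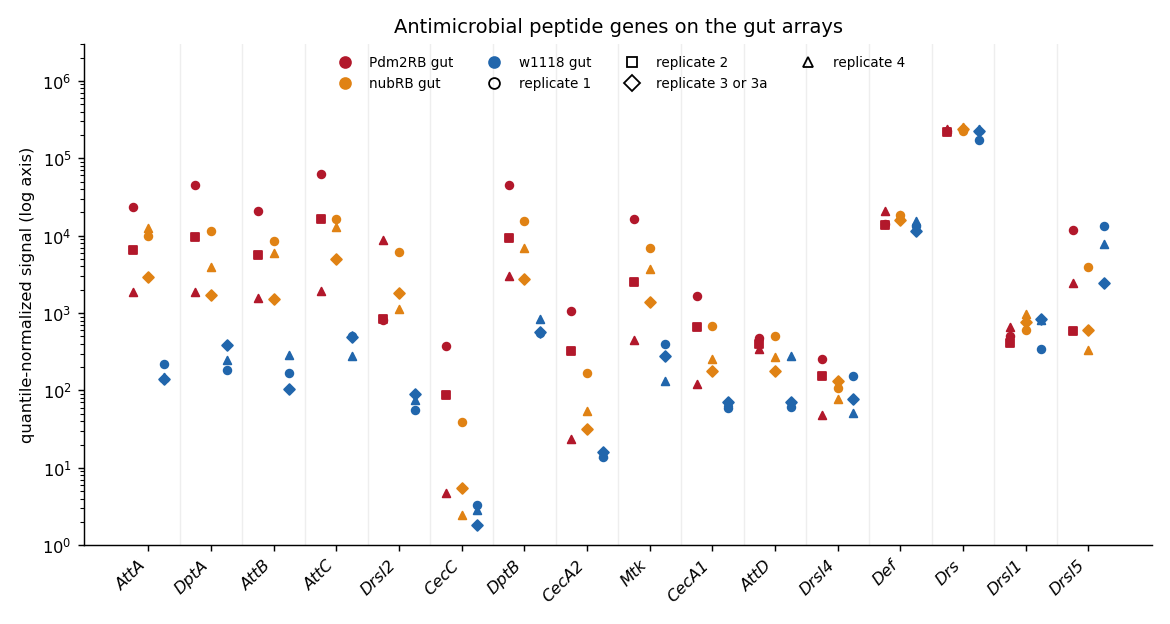
Normalized signal on a log10 axis of the 16 tested antimicrobial peptide genes, 1 point per array, with Pdm2RB guts, nubRB guts and w1118 guts from left to right within each gene. For 11 genes all 3 Pdm2RB points lie above all 3 w1118 points, and the Pdm2RB points of AttA spread between 1875 and 23533.

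Lysozymes cut bacterial cell walls, and several of the fly's lysozyme genes act in digestion in the midgut. All 4 with a symbol had higher signals in each Pdm2RB gut than in any w1118 gut, with a median log2 fold change of 2.56, and 1 of the 4 passed (12.3% of all tested probes were higher without overlap, and 0.157% passed as higher). This was LysC, with 105034, 137934 and 141574 in Pdm2RB guts, against 15937, 21404 and 25382 in w1118 guts (log2 2.63, SE 0.22, adjusted p = 0.00834). RefSeq lists LysC as a pseudogene, and the lysozyme copies are so alike that the probe may read several of them. LysX gave 3764, 4573 and 6816 in Pdm2RB guts, against 588, 1718 and 655 in w1118 guts (log2 2.49, adjusted p = 0.0686). LysP gave 2711, 1795 and 18.6 in Pdm2RB guts, against 5.10, 6.15 and 5.97 in w1118 guts. Its Pdm2RB gut 4 was far below the other Pdm2RB arrays, no w1118 array was well above background, and the log2 fold change of 6.29 had an adjusted p of 0.184. LysE had 1.17 (adjusted p = 0.0879).

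Among genes of carbohydrate digestion, the 3 with a symbol were higher on each Pdm2RB array than on any w1118 array, as 12.3% of all tested probes were, and none passed at 1% (median log2 fold change 2.50). The maltase Mal-A8 gave 141132, 164382 and 64258 in Pdm2RB guts, against 13413, 27825 and 11785 in w1118 guts (log2 2.80, SE 0.48, adjusted p = 0.0543), and its second probe had 2.94 (adjusted p = 0.0363). Mal-A7 gave 144296, 157019 and 61391 in Pdm2RB guts, against 32490.2, 31564 and 16315 in w1118 guts (log2 2.13, adjusted p = 0.091). For tobi, an alpha-glucosidase gene known as a target of insulin and glucagon-like signals, the log2 fold change was 2.50 (adjusted p = 0.131). Pdm2RB gut 4 was the lowest Pdm2RB array for all 3 genes.

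Among the serine digestive proteases no gene passed, which for a list of this size is near the share of 0.344% over all tested probes. Of 25 genes with a symbol, 0 passed, 8 were higher and 17 lower in mean, the median log2 fold change was -0.09 and the range was -0.90 to 0.68. The median was -0.65 after scaling to the 75th percentile, where that of all tested probes was -0.052, and -0.40 with slide as a random block, with 0 called in both. The lowest was thetaTry, a trypsin, with 54329.9, 66702 and 81322 in Pdm2RB guts, against 107948, 131314 and 136260.5 in w1118 guts (log2 -0.90, adjusted p = 0.0872). Its groups did not overlap.

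In the IMD and Toll pathways, recognition proteins and regulators, all 8 tested genes had positive log2 fold changes with a median of 0.30. Of these genes 0 passed, near the share of 0.344% over all tested probes. The clearest was PGRP-SC1b, an amidase that degrades peptidoglycan and restrains IMD signalling, with 383008, 420200.2 and 394468 in Pdm2RB guts, against 177453, 190892 and 190892 in w1118 guts. Each Pdm2RB array was about 2-fold above the control (2.14-fold, log2 1.10, SE 0.11, adjusted p = 0.0126). PGRP-SB1 gave 10734, 4128 and 1039 in Pdm2RB guts, against 1275, 1506 and 705 in w1118 guts, with overlapping groups (log2 1.70, adjusted p = 0.384). As with the attacins, Pdm2RB gut 1 was the highest and Pdm2RB gut 4 the lowest of the Pdm2RB arrays.

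The lists of stress and damage pathways were short. Of all tested probes 0.344% passed, so 0 calls in a list of such a size says little about its genes. Of 4 genes of the JNK and p38 pathways 1 passed, wnd. Of 4 genes of the JAK/STAT pathway and the Turandot family 0 passed (median 0.18), and Diedel, a secreted inhibitor of IMD signalling, had 1.36 (adjusted p = 0.205). Oxidative and heat stress had 0 of 5 (median 0.03), with 1.33 for the glutathione transferase GstD2 (adjusted p = 0.295). Of 8 cytochrome P450 genes 0 passed (median 0.11), of 9 thioester protein, scavenger receptor and Nimrod genes 0 (median -0.64), and of 6 ribosomal protein genes 0 (median -0.06). Of 4 tested odorant-binding protein genes 2 passed, Obp57a and Obp57c, both lower. Obp46a of the same family gave 2441, 2036 and 2535 in Pdm2RB guts, against 1.67, 1055 and 682 in w1118 guts. The groups did not overlap, but w1118 gut 1 was far below the other w1118 arrays (log2 4.45, SE 2.48, adjusted p = 0.426).

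No tested marker gene of a cell type passed. As 0.344% of all tested probes passed, 0 calls in lists this short carries little information. Of 7 tested hemocyte genes 0 passed, with a median of -0.35 and a mean log2 signal over the list of 8.53 to 9.48 on the Pdm2RB arrays and 9 to 9.5 on the w1118 arrays. Fat body had 0 of 5 (median -0.08), at 8.30 to 9.30 on the Pdm2RB arrays and 8.63 to 8.86 on the w1118 arrays. Enterocyte markers had 0 of 3, and the Malpighian tubule gene CapaR had 0.28 (adjusted p = 0.418). The photoreceptor gene Arr1, an arrestin, gave 19054, 189 and 95.1 in Pdm2RB guts, against 22428, 478 and 854 in w1118 guts. Pdm2RB gut 1 and w1118 gut 1 were thus both far above the other arrays of their groups, and the part of RNA from such cells in the differences above was not tested. In a dissected gut, fewer cells of a type and less RNA per cell cannot be told apart. No gene with a symbol was on the lists for stem cells, enteroendocrine cells, visceral muscle, ovary or neurons.

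**Figure D4:**
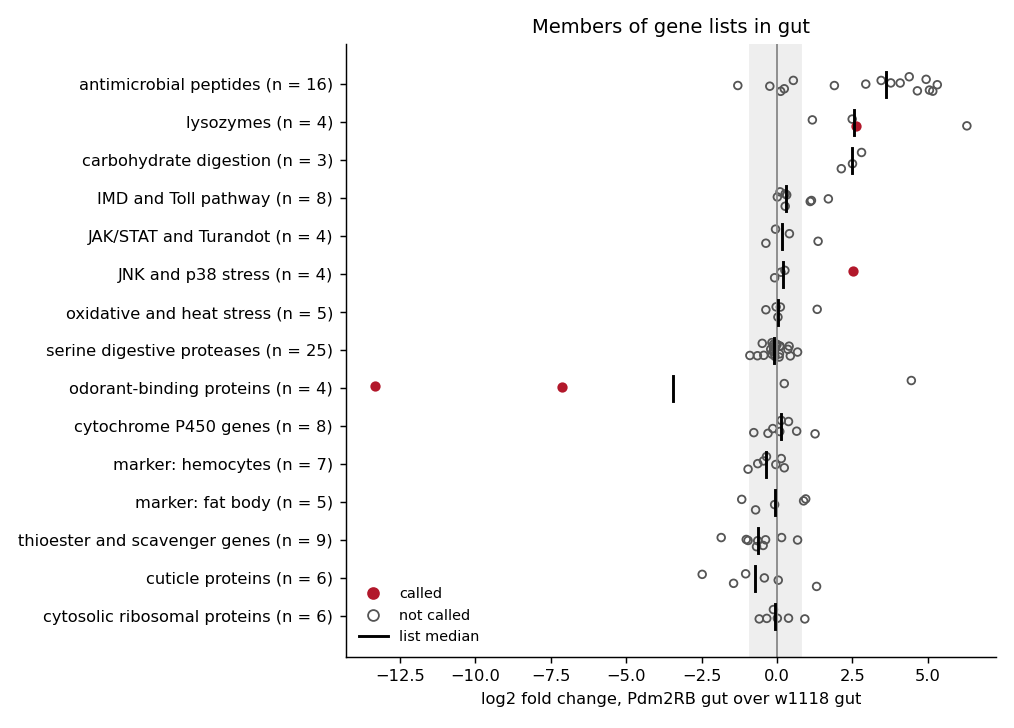
Log2 fold change of Pdm2RB gut over w1118 gut (x axis) of every tested gene with a symbol on the gene lists, 1 row per list, with called genes filled, the median of each list as a bar and a grey band from -0.91 to 0.78 that holds 90% of all tested probes. The antimicrobial peptides, lysozymes and carbohydrate digestion genes have medians of 3.61, 2.56 and 2.50, and the serine digestive proteases lie around -0.09.

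The same genotypes were compared in rest on separate arrays, where 142 of 16454 tested probes were called (0.863%), 84 higher (0.511%) and 58 lower (0.352%) in Pdm2RB. Of the 57 probes called in gut, 49 were tested in rest and 44 of these had the same sign there. Rest called 21 of them in the same direction, which is 42.9% of the 49 and 14.8% of the 142, and 0 in the opposite direction. Oat probe A_09_P164595 gave 10734, 18517 and 18138 in the 3 Pdm2RB rest samples, against 4.60, 2.20 and 5.26 in the 3 w1118 rest samples (log2 11.99, adjusted p = 5.82e-05). The second Oat probe, A_09_P033076, was bright in both genotypes, with 3378, 5631 and 5471 in Pdm2RB rest samples, against 2300, 2363 and 1762 in w1118 rest samples. Its log2 fold change of 1.15 did not pass (limma adjusted p = 0.0672), so the Oat probes disagreed in size in rest too. A_09_P143788 had 12.07 in rest (adjusted p = 3.83e-06). In both tissues A_09_P164595 and A_09_P143788 were bright in Pdm2RB and at single-digit signals in w1118.

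Su(P) gave 3.08, 2 and 2.51 in Pdm2RB rest samples, against 5842, 5634 and 6065 in w1118 rest samples, at least 929-fold lower (log2 -11.20, adjusted p = 3.83e-06). Obp57c had -5.34 in rest (adjusted p = 0.000109), with 29.7, 48.0 and 30.7 in Pdm2RB rest samples, against 1354, 1585 and 1359.8 in w1118 rest samples. Obp57a had -9.59 in rest (adjusted p = 5.82e-05). Other genes called in both tissues were CG3513, Nf-YA, lncRNA:CR32368, wnd, Rala and CG18327, with 4.57, 3.54, 3.11, 3.20, -2.31 and -1.71 in rest (adjusted p = 0.00432, 0.0018, 0.00198, 5.65e-05, 0.00277 and 0.00655). The probes of Rala and of Nf-YA disagreed in rest too. Rala probe A_09_P030671 was called higher there (log2 1.39, limma adjusted p = 0.00717), and Nf-YA probe A_09_P189150 had 0.08 (limma adjusted p = 0.845). LysC and lectin-37Da did not pass in rest (log2 -1.21 and 2.54, adjusted p = 0.563 and 0.0729). Of the antimicrobial peptides, 14 were tested in rest with a median of 4.93, and AttA alone passed (5.54, adjusted p = 0.00965). The serine digestive proteases, which mark gut tissue, had a median log2 fold change of -5.71 over 24 tested genes in rest, with 0 called. Among them thetaTry gave 1.83, 2.61 and 3.46 in Pdm2RB rest samples, against 1081, 13.6 and 1674 in w1118 rest samples. Their part in the rest values of other gut genes was not tested.

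**Figure D5:**
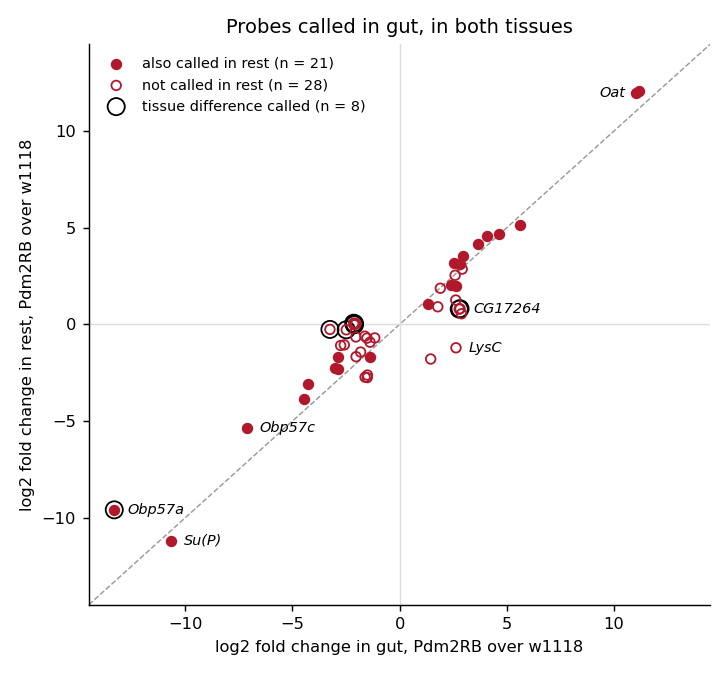
Log2 fold change of Pdm2RB over w1118 in gut (x axis) against that in rest (y axis) for the 49 gut-called probes tested in both tissues, filled where rest called them too (21) and ringed where the interaction was called (8), with a dashed line at equal values. The points of Oat, A_09_P143788 and Su(P) lie beyond 10 on both axes, and 44 of the 49 points have the same sign on both.

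Whether the genotypes differed more in gut than in rest was tested through the genotype-by-tissue interaction. It was called for 35 of 17918 probes (0.195%), 10 with a higher (0.0558%) and 25 with a lower value in gut (0.14%), and 13 of these were among the 57 probes called in gut. Of the 13, 4 were higher and 9 lower in Pdm2RB guts. CG17264 gave 312, 315 and 396 in Pdm2RB rest samples, against 211, 199 and 172 in w1118 rest samples. Its log2 fold change was 2.82 in gut and 0.81 in rest, a difference of 2.01 (adjusted p = 0.00199). With gut and rest arrays of the same genotype and number as a block, 1 probe was called instead of 35, and CG17264 had an adjusted p of 0.0174. With the number alone as a block, 16 were called.

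The interaction was also called for A_09_P079141 (-4.72, adjusted p = 0.00199) and A_09_P015716 (-4.62, adjusted p = 0.000799), which stayed below the signal threshold in rest but were well above background on every array there. For another pair of called probes the fitted value has no exact meaning. Obp57a gave 4.01, 2.23 and 5.23 in Pdm2RB rest samples, against 2593, 2554 and 3244 in w1118 rest samples. No Pdm2RB array of either tissue was well above background, so its fold changes are bounds (at least 6240-fold lower in gut and at least 434-fold in rest) that do not show a difference between the tissues. A_09_P152205 was not well above background in rest in either genotype, so it has no fold change there. A transcript identifier read by 3 called probes, at -2.10, -2.11 and -2.14 in gut, had 0.03, -0.02 and 0.06 in rest, and the interaction was called for all 3. For Oat, wnd, Nf-YA, Srg2 and LysC it did not pass.

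Guts of nubRB flies, which carry another POU transgene under the same driver, share the w1118 controls with the comparison above, and 83 of 16698 probes were called between nubRB and w1118 guts (0.497%). The 2 transgenic lines were therefore compared directly. Between Pdm2RB guts and nubRB guts, 56 of 16539 probes were called (0.339%), 27 higher (0.163%) and 29 lower (0.175%) in Pdm2RB. Of the 57 probes that differed from w1118, 54 were tested here and 10 were called, while 30 lay within 2-fold. Of the 10, 4 were higher and 6 lower in Pdm2RB guts, and 9 had the same direction as against w1118.

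A_09_P143788 gave 17371, 16134 and 14162 in Pdm2RB guts, against 6.49, 4.97 and 7.74 in nubRB guts (log2 11.30, adjusted p = 2.27e-05). A_09_P152205 had 3.91 (adjusted p = 0.00273), with 8.95, 7.12 and 12.1 in nubRB guts. A_09_P015716 was lower in Pdm2RB guts by the same measure (log2 -5.41, adjusted p = 0.00197), with 921, 586 and 744 in nubRB guts. On all 3 probes the signals of the transgenic lines did not overlap. Obp46a had 4.92, 4.89 and 4.04 in nubRB guts and differed between the lines (log2 8.98, adjusted p = 2.27e-05).

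CG18327 was the exception in direction. It gave 4443, 5071 and 4983 in Pdm2RB guts, 938, 670 and 871 in nubRB guts, and 12736, 11819 and 12831 in w1118 guts. On this probe the Pdm2RB level stood between the others, above nubRB (log2 2.56, adjusted p = 0.00343) and below w1118. The second probe, A_09_P007556, gave 13305, 13807 and 14470 in Pdm2RB guts and 11261, 9204 and 11142 in nubRB guts, and its direct log2 fold change of 0.40 did not pass (adjusted p = 0.315).

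For many other genes the direct comparison did not pass. Oat gave 3627, 4628 and 6463 in nubRB guts, within the range of the Pdm2RB guts (log2 0.15, adjusted p = 0.957). Su(P) gave 3.17, 3.30 and 2.44 in nubRB guts, and neither line was above background. In nubRB guts Obp57a varied, with 3.07, 646 and 4469.9, and the direct test did not pass (log2 -5.56, adjusted p = 0.452). Srg2 gave 35518, 43855 and 48224 in nubRB guts and wnd 5108, 5034 and 5532, both close to the Pdm2RB signals. Rala gave 3140.4, 2513 and 2819 in nubRB guts on the probe that gave 2854, 2722 and 2850.1 in Pdm2RB guts.

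The antimicrobial peptides spread widely in both lines. AttA gave 23533, 6475 and 1875 in Pdm2RB guts and 9758, 2929 and 12468 in nubRB guts. DptA gave 11347, 1732 and 3927 in nubRB guts, and Drsl2 gave 6184, 1799 and 1137. All 16 tested peptide genes failed the direct test, with a median log2 fold change of Pdm2RB over nubRB of 0.36. For AttA the direct log2 fold change was -0.11 with an SE of 1.03 (adjusted p = 0.978), so a difference of several-fold between the lines was not detectable with these arrays.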

How the data were processed

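Each RNA sample was labelled and hybridized to its own one-colour Agilent array, and gut and rest samples were treated as independent. Per the paper's methods, the authors extracted intensities with Agilent Feature Extraction 10.7.3.1 and quantile-normalized the processed signals in Partek. The deposited scanner tables hold a background-subtracted intensity per spot. The deposited series table holds linear normalized signal values, which were used as an alternative. Here, in R 4.3.3, unmarked spots of a probe were averaged, quantile-normalized over 19 arrays and log2-transformed. Of these values, 99.92% were within 0.01 (log2) of the deposited table, also after log2.

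limma 3.58.1 (lmFit, eBayes) was run separately on the arrays of each comparison, without covariates, and p-values were adjusted over all probes whose mean linear signal exceeded 130 in at least 1 group. The methods' threshold of 1% was used. The labels do not number flies per pool, and p-values measure the spread between these pools. Lower bounds ("at least") set each dim array to the higher of its own signal and its lowest signal well above background. The number of arrays limits the precision. Scripts were tested on simulated data.

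Symbols were taken for 1604 of 32162 probes (1171 genes) from the supplementary tables, RefSeq accessions (317 probes), cDNA clone names (146) and shared transcript identifiers (171). Symbols from the supplements are mostly of genes changed in nubRB flies, so shares of a list do not carry over to its unnamed members. Where a gene had several probes, the brightest tested one stood for it in list counts. The text names nub, Oat, the 12 called probes with the largest changes in each direction (at most 2 without a symbol each way), and from each list the called members or the one with the smallest p. lectin-37Da, lncRNA:CR32368, CG17264, Pgcl, CG18327, Mdr50 and further list members were named after their values were seen. The comparison, lists and tests were chosen with earlier results of these data known.

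The alternatives were other normalizations, backgrounds, filters, models, blocks (slide, scan session, replicate number), thresholds, the methods' t-test, and leaving out each array. Those on the antimicrobial peptide median and on gut and rest of 1 number as a block were added after seeing the data.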

Additional observations from a re-analysis of the deposited data

Results flagged for a closer look

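For 5 of the named genes and probes the difference between Pdm2RB and w1118 in gut and rest drew attention through limma's test of the interaction of genotype and tissue. For CG17264 the log2 fold change was higher in gut by 2.01 (2.82 in gut, 0.81 in rest). The interaction was -4.72 for A_09_P079141 and -4.62 for A_09_P015716, which were below the signal threshold and above background in rest. The fitted values of the others rest on signals at background and are no measured differences. For Obp57a it was -3.72, with no Pdm2RB array well above background in either tissue, and for A_09_P152205 it was 6.47, with no array of either genotype well above background in rest. With gut and rest of the same genotype and number as a block, none of the 5 passed at 1%.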

How the results depend on the processing

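The gut comparison called 57 probes. It called 77 after scaling to the 75th percentile, 72 with quantiles over 6 arrays, 80 after normexp, 56 on the deposited table and 44 with a filter on probes well above background. It called 28 without the signal threshold, 448 in the model over 6 groups, 493 with slide as a random block, 336 at 5% and 13 by the methods' t-test. With 1 array left out it called 6 to 31. The model over 6 groups called 314 in rest and 242 between Pdm2RB and nubRB guts. With 1 array left out, the counts were 44 to 166 in rest, 18 to 159 for the interaction and 7 to 27 between the transgenic lines. The scan session as a block left 39 calls, 31 of them among the 57. Replicate numbers 1 and 4 occur in both groups, and deviations from the group means correlated by 0.65 and 0.408 for the same number, over 2 pairs. With the replicate block, which leaves 1 residual degree of freedom in gut, 0 probes were called in gut, 0 in rest and 0 between the lines, and 16 for the interaction (35 without). Gut and rest of the same genotype and number correlated by -0.0475 to 0.172 in their deviations, and with them as a block 1 probe was called for the interaction. The antimicrobial peptide median of 3.61 was 1.48 after normexp, 1.15 within the scan session of Pdm2RB gut 4 and 2.35 to 4.35 with 1 array left out. The probes given with lower bounds changed in size, so the bounds do not hold under every alternative. The log2 fold changes nearest to no change were 5.49 for Oat, 1.06 for A_09_P152205, -5.44 for Su(P) and -8.37 for Obp57a. Of 614 alternative values for 41 named probes, 613 kept their direction, 133 lost their call and 8 gained one. The exception was Arr1, which ranged from -3.96 without Pdm2RB gut replicate 1 to 0.13 without w1118 gut replicate 1. The cause of these changes was not tested.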

Other observations

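Several further genes with a symbol passed at a false discovery rate of 5% and not at 1%. They were chosen after their values were seen. Higher in Pdm2RB guts were CG16704, the close neighbour of CG3513 (log2 fold change 2.23, limma adjusted p = 0.0102), Nazo (1.97, adjusted p = 0.0131), Sid (1.85, adjusted p = 0.0175), Erasp (1.39, adjusted p = 0.0112) and Takl1 (1.36, adjusted p = 0.0126). Lower were CG9616 (-3.87, adjusted p = 0.0102), Tmlh, whose name stands for trimethyllysine hydroxylase (-2.95, adjusted p = 0.0448), and the C-type lectin gene lectin-33A (-1.77, adjusted p = 0.0241). The lectin genes with a symbol thus held values of both signs, with 2.59 for lectin-37Da.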
